A study of Mus musculus with 38 samples.

Results

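Base-unpairing regions (BURs) are genomic elements whose double helix separates readily under stress, and the 500 regions of 100 kb that hold the most of them are described here. Chromosomes 1 to 19 of the mouse genome (NCBIM37, the assembly of mm9) were divided into 24731 bins of 100 kb from position 0. The midpoints of the peaks of the BUR reference map were counted in each bin, and the 500 bins with the highest counts were taken, with ties broken by chromosome number and then by position. The members were thus chosen by their BUR count, which is given as a description and not tested. The 500 bins made up 2.02% of all bins and held 13592 of the 219828 BURs of these chromosomes, or 6.18%.

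The BUR reference map was made in vitro, by incubating sonicated, protein-free genomic DNA of C57BL/6 mouse thymus with recombinant SATB1 and sequencing the bound fragments. It is a single list. The other 10 lists are chromatin immunoprecipitation with sequencing (ChIP-seq) from Satb1 wild-type C57BL/6 mice. SATB1 was mapped by urea ChIP-seq in duplicate in thymocytes, brain and skin, and by standard ChIP-seq in duplicate in thymocytes alone. CTCF was mapped by urea ChIP-seq once in thymocytes and once in skin. Before immunoprecipitation, the urea method spins crosslinked chromatin through urea, which strips proteins that are not crosslinked to DNA, and the standard method omits this. The urea SATB1 lists and standard replicate 2 were made with the antibody 1583D, standard replicate 1 with ab109122. The labels give age P13 for thymocytes and skin, where brain replicates 1 and 2 are labelled 5 and 6 weeks. The titles of standard replicate 1 and of the thymocyte CTCF sample name 6 weeks instead, and the protocols name P13 for brain and P5 for skin. The study's methods name other ages again for both tissues, and age and tissue cannot be told apart. The urea SATB1 replicates of a cell type share an experiment number in their titles, and differ there by PCR cycles in brain (10 and 12), by seconds in skin (55 and 60) and by the volume of antibody in thymocytes (4 and 2 μl). The standard SATB1 replicates have different numbers. The study describes its replicates as cells from different animals, but the labels do not say so for each pair, so p-values may measure technical spread in part.

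SATB1 is a nuclear protein that organises chromatin and is abundant in immature T cells, in parts of the brain and in the epidermis. It recognises BURs by an AT-rich context in which 1 strand carries A, T and C without G over a stretch, rather than by a fixed motif. Many BURs close together are typical of gene-poor, AT-rich chromatin. CTCF, which binds a GC-rich motif and marks loop anchors, serves here as a DNA-binding protein of another kind.

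The BUR count of the members ranged from 25 to 37, with a median of 27, against a median of 7 in the other bins. The comparison set was the 23478 other bins with at least 50 kb of sequenced bases, and 753 bins had less. The threshold fell among ties: 432 bins held more than 25 BURs and 208 held exactly 25, of which the first 68 were taken and 140 were left out. The last bins inside (chr6:19700001-19800000 and chr6:20400001-20500000) and the first outside (chr6:26200001-26300000 and chr6:26300001-26400000) all held 25. In brain, the mean share of their BURs with a urea SATB1 peak was 56% and 34% inside and 44% and 50% outside. Tied bins beyond this point of chromosome 6 were thus left out whatever their SATB1 binding.

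The densest bins were unevenly spread. Chromosome 14 had 66 of them, 5.27% of its bins, followed by chromosome 16 with 4.37% and chromosome 5 with 3.74%. Chromosomes 9, 11 and 19 had 4, 4 and 2, each under 0.33% of their bins. Bins with exactly 25 BURs were taken on chromosomes before chromosome 6 and left out on those after it. Counts and shares of chromosomes thus rest on unequal thresholds. Of the 500 bins, 299 had no densest bin as a direct neighbour, 201 lay in runs of 2 or more, and 387 had another within 500 kb. The longest run was 8 bins with 220 BURs, chr14:89700001-90500000. Midpoints of neighbouring BURs within a densest bin lay a median of 2827 bp apart (quartiles 1424 and 5129 bp), against 5458 bp in the other bins.

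The sequences printed here show what such a bin contains. They were read from the plus strand of NCBIM37 as 200 bp around the summit, and capitals mark the longest stretch without C or without G. The first is the BUR with the highest in vitro fold enrichment in the densest bin of all, at chr5:83160681-83160880. The second, at chr5:56409059-56409258, had the highest mean fold enrichment among BURs bound in all 6 urea SATB1 libraries. The third, at chr3:70800879-70801078, was the strongest BUR in vitro with no peak in any of the 10 ChIP-seq lists. All lie between protein-coding genes.
BUR of the densest bin: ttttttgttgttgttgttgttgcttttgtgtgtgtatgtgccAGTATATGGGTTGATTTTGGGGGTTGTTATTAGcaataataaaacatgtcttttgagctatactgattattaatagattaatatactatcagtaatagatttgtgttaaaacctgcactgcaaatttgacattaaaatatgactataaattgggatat
BUR bound in all libraries: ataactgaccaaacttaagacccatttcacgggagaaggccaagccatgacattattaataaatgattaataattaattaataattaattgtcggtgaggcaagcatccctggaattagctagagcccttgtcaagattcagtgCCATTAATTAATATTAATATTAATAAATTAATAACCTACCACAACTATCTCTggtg
BUR without a ChIP-seq peak: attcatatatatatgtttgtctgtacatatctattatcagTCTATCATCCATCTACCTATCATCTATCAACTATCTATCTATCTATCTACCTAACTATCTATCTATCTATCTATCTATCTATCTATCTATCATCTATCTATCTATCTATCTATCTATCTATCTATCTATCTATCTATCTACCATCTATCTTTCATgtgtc

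The BUR of the densest bin had an in vitro fold enrichment of 11.6, the pileup at the summit over a local background, as given by the peak caller. Its longest stretch lacks C over 33 bp, and its urea SATB1 peaks had fold enrichments of 16.4 and 16.8 in thymocytes, 13.8 in both brain replicates, and 8.59 and 7.78 in skin. The BUR bound in all libraries was of similar strength in vitro, at 10.8, but reached 31.9 and 32.4 in thymocytes, 23.0 and 21.5 in brain and 32.0 and 32.3 in skin. It lacks G over 52 bp. The BUR without any ChIP-seq peak was the stronger in vitro, at 18.8. It is a tandem repeat of TCTA that lacks G over 155 bp.

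The BURs of the densest bins were richer in AT but weaker in vitro than other BURs. Their median AT content was 72.9% (quartiles 70.7% and 74.7%) against 70.4% in the other bins, and 96.7% against 81.9% had an AT content of at least 65%. Their longest stretch without C or without G had a median of 42 bp against 43 bp, and their length a median of 433 bp against 441 bp. The median fold enrichment was 4.83 against 6.05, while the median −log10 q was 26.6 against 27.5. These are values of the list that chose the bins, and they are not tested. The bins as a whole had a median AT content of 64% (54.8% to 65.7%) against 58.5% in the other bins.

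Urea SATB1 peaks were found in nearly all of the densest bins in brain and thymocytes and in most of them in skin. In brain, all 500 bins held at least 1 peak in both replicates, where 86.3% and 85.4% of all bins did. In thymocytes, 498 and 493 bins did, where the share over all bins was 71.3% and 68.2%. In skin, 306 and 299 bins did, against 32.6% and 31.7%. Among other bins of 61.8% to 65.7% AT, described below, 99.5% and 99.4% held a peak in brain. In thymocytes 95.9% and 93.7% of those bins did, and in skin 48.1% and 47.5%. The mean number of peaks per densest bin was 13.3 ± 0.621 (SD, n = 2) in brain, 4.66 ± 0.552 in thymocytes and 1.01 ± 0.0382 in skin, and in the other bins 4.33 ± 0.234, 1.58 ± 0.161 and 0.409 ± 0.00895. The densest bins held 3.10 times as many BURs per bin as the other bins, and 2.44 to 3.08 times as many urea SATB1 peaks in the 6 libraries.

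The share of BURs that were bound, counted as sharing at least 1 bp with a urea SATB1 peak, measures binding apart from the number of BURs. In brain, 6054 (44.5%) and 5570 (41.0%) of the 13592 BURs were bound in replicates 1 and 2, where 37.4% and 34.5% of all BURs of chromosomes 1 to 19 were. In thymocytes, 2236 (16.5%) and 1931 (14.2%) were bound, against 14.6% and 12.9% of all BURs. In skin, 470 (3.46%) and 456 (3.35%) were bound, against 3.68% and 3.61%. Brain and thymocytes thus lay above the level of all BURs in both replicates, and skin lay slightly below it in both. The next 500 bins by rank, with 23 to 25 BURs each, were much alike. They had 44.4% and 40.7% bound in brain, 16.5% and 13.9% in thymocytes and 3.22% and 3.1% in skin. In the densest bins, the lowest brain library lay above the highest thymocyte library, and the lowest thymocyte library above the highest skin library. The order skin, thymocytes, brain had an exact one-sided Jonckheere-Terpstra permutation p of 0.0111, the smallest that 90 arrangements allow, and of 0.0667 after Benjamini-Hochberg adjustment over 6 tests. The direction tested was already known over all BURs of these lists, so the test is not independent of them and adds no support. This order is also that of the numbers of peaks in the whole lists, and the lists give no depth. The study describes the total aligned reads of its urea libraries as similar between cell types, which was not checked here.

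Against the other bins, the share of BURs bound was 1.2 ± 0.00179 times as high in brain (SD, n = 2), 1.12 ± 0.0222 times as high in thymocytes, and 0.933 ± 0.00829 times as high in skin. The mean log2 ratio over the 6 libraries was 0.11, and an exact two-sided sign-flip permutation test did not separate it from 0 (p = 0.188, adjusted p = 0.281, smallest possible p 0.0312). With the 3 cell-type means as units, the exact permutation p was 0.50. The ratio differed more between cell types than between replicates. The sum of squares between cell types was 147 times that within them. The exact permutation p of this was 0.0667, the smallest the design allows, and the adjusted p 0.133.

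**Figure D1:**
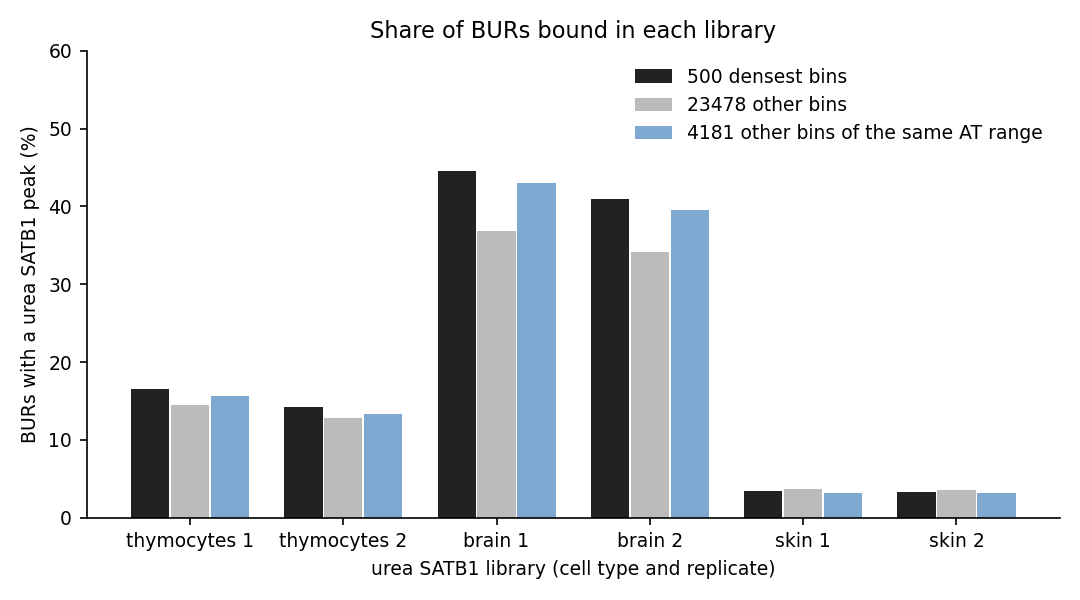
Percentage of BURs that overlapped a urea SATB1 peak (vertical axis) in each of the 6 libraries (cell type and replicate), in the 500 densest bins, in all other bins and in the 4181 other bins with an AT content of 61.8% to 65.7%. Brain stands near 41.0% to 44.5% in the densest bins, thymocytes at 14.2% to 16.5% and skin near 3.4%, and the bars of the AT range lie close to those of the densest bins.

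The difference was smaller among other bins within the same limits of AT content. Over the full AT range of the densest bins, 54.8% to 65.7%, which 18536 other bins share, the mean log2 ratio was 0.10, against 0.11 over all other bins. A narrower range was added after the data were seen. It was taken without the bin chr11:3000001-3100000, the only one under 61.8% and described below, which left 499 densest bins and 4181 other bins between 61.8% and 65.7% AT. The other bins of this range had 18.6 BURs each, against 27.2, and a median AT content of 62.8%, against 64%. In them 43.0% and 39.5% of BURs were bound in brain, 15.7% and 13.4% in thymocytes and 3.2% and 3.14% in skin. The densest bins were above this in every library, but by ratios of 1.04 to 1.07 only (exact two-sided sign-flip permutation p = 0.0312, adjusted p = 0.0938), and the skin ratio changed side to 1.07 and 1.05. Within classes of 1% AT, the direction was not constant. Between 63% and 64% AT, where 216 densest and 1305 other bins lie, 42.9% and 39.3% of BURs were bound in brain in the densest bins and 44.8% and 41.2% in the others. Between 64% and 65%, with 215 and 256 bins, the shares were 45.9% and 42.4% against 48.5% and 44.5%. In thymocytes too the densest bins were the lower ones in these 2 classes in both replicates, and between 62% and 63% they were the higher ones in all 6 libraries. These classes were added after the data were seen and no test was made of them.

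**Figure D2:**
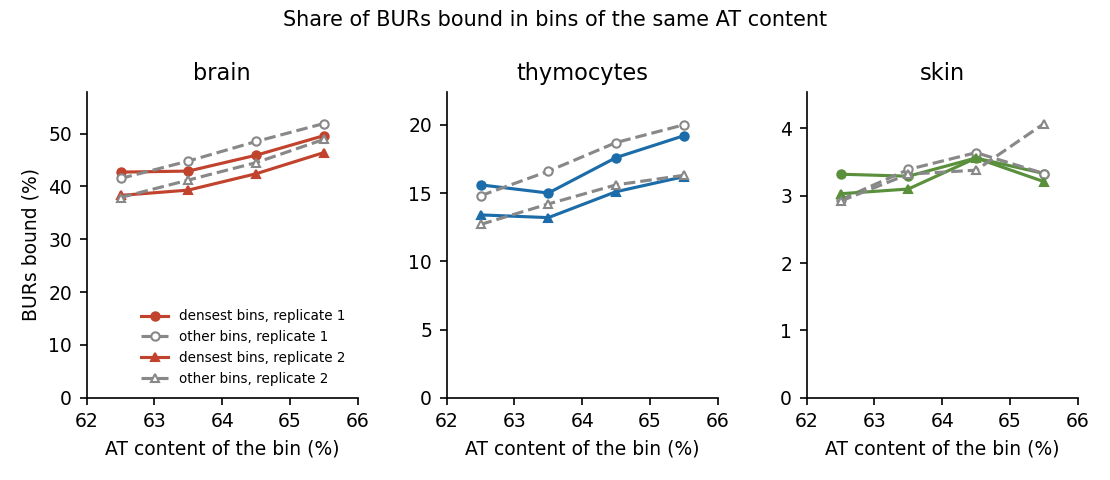
Percentage of BURs bound (vertical axis, from 0) in classes of 1% AT content of the bin, in the densest bins (filled, coloured) and other bins (open, grey), by replicate. From 63% AT upward the share rises in brain and thymocytes, and the densest bins lie below the others from 63% to 66% AT in these cell types, with only 28 densest and 12 other bins in the last class.

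Among the densest bins, bound BURs were stronger in vitro and longer than free ones. In brain the median in vitro fold enrichment was 5.75 and 5.79 for bound BURs and 4.23 and 4.28 for free ones, and the median length 484 bp in both replicates against 393 and 398 bp. In thymocytes the bound BURs had medians of 6.45 and 6.56 and in skin of 7.17 and 7.15. The AT content of bound BURs was no higher than that of free ones, with medians of 72.7% and 72.6% in brain against 73.1% in both replicates, and 71.6% in skin against 72.9%.

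Since the densest bins held weaker BURs, shares were also compared within quartiles of the in vitro fold enrichment of all BURs. The weakest quartile held 38.0% of the BURs of the densest bins and the strongest 8.93%. In brain, the share bound rose from 27.1% and 24.8% in the weakest quartile to 68.1% and 63.3% in the strongest, and in the other bins from 21.7% and 19.6% to 47.5% and 44.3%. In skin it rose from 0.871% and 0.832% to 9.72% and 8.73%, and elsewhere from 0.700% and 0.714% to 8.73% and 8.63%. The densest bins had the higher share in all 4 quartiles and all 6 libraries, by ratios of 1.01 to 2.02, skin included. The fold enrichment is relative to a local background that neighbouring BURs may enter, and their part in it was not tested. Weighting the other bins by quartiles of −log10 q instead gave smaller log2 ratios, of 0.28 in brain, 0.24 in thymocytes and 0.03 in skin, against 0.45, 0.60 and 0.58 by fold enrichment.

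**Figure D3:**
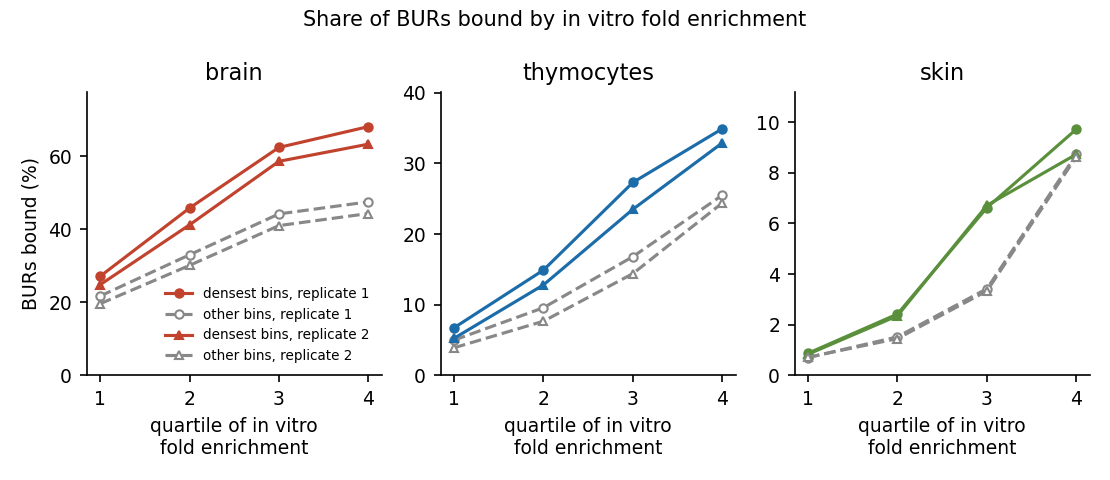
Percentage of BURs bound (vertical axis) by quartile of in vitro fold enrichment (horizontal axis, 1 weakest to 4 strongest) for each replicate, in the densest bins (solid lines) and the other bins (dashed lines). The solid lines lie above the dashed ones throughout, and come closest in skin at quartile 4, at 8.73% and 8.63% in replicate 2.

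The fold enrichment of the urea SATB1 peaks on a BUR was lower in the densest bins. Over all urea SATB1 peaks, the medians were equal in brain replicate 1 (7.04) and skin replicate 2 (7.78) and lower in the other libraries. Neighbouring BURs may enter the local background here too, which was not tested. For peaks on a BUR, the median in brain was 7.48 and 7.58 against 8.25 and 8.40 in the other bins, in thymocytes 7.67 and 7.80 against 8.38 and 8.58, and in skin 7.96 and 7.98 against 8.59 and 8.36. The ratio was 0.903 to 0.955, below 1 in 6 of 6 libraries, with an exact two-sided sign-flip permutation p of 0.0312, the smallest possible, and an adjusted p of 0.0938. Against other bins of the narrow AT range the mean log2 ratio went from −0.12 to −0.05 (exact sign-flip permutation p = 0.0625). Peaks off a BUR were fewer and weaker: in brain there were 840 and 851 of them, a median of 1005 and 969 bp from the nearest BUR, with median fold enrichments of 4.98 and 5.25. The percentage of urea SATB1 peaks on a BUR was 86.7% to 92.5% in the densest bins and 71.8% to 79.0% in the others, and the part of BUR density in this was not tested.

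The cell types bound largely nested sets of BURs, in the densest bins as in the others. Of the 386 BURs of the densest bins bound in both skin replicates, 372 (96.4%) were bound in both thymocyte replicates and 371 (96.1%) in both brain replicates, against 94.2% and 93.9% in the other bins. Of the 1670 bound in thymocytes, 1634 (97.8%) were bound in brain, and 22.3% in skin, against 97.9% and 25.9%. Of the 5168 bound in brain, 31.6% were bound in thymocytes and 7.18% in skin, against 35.3% and 9.33%. In 2804, or 20.6% of all BURs of these bins, both brain replicates had a peak and there was none in any thymocyte or skin library. In the other bins 16.0% of BURs had this pattern. No urea SATB1 library had a peak on 7078 BURs (52.1%, against 59.7% in the other bins), and 364 (2.68%, against 2.87%) were bound in all 6. Of the urea SATB1 peaks of a replicate in the densest bins, 72.2% to 89.2% overlapped a peak of its partner, against 73.5% to 84.9% in the other bins.

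The share of BURs bound varied between bins of only 25 to 37 BURs each, and how much of this small counts give was not tested. The mean of the 2 replicates ranged in brain from 18.5% to 69.2% with a median of 42.5%, in thymocytes from 0% to 38.5% with a median of 15.4%, and in skin from 0% to 30.4% with a median of 3.45%, with 181 bins at 0. As a description across the 500 bins, which share libraries, the share in one replicate had a Pearson's r of 0.76 with that in its partner in thymocytes, 0.77 in brain and 0.84 in skin. Between cell types r was 0.44 for thymocytes and brain, 0.52 for thymocytes and skin and 0.17 for brain and skin. With the AT content of the bin, r was 0.24 in brain, 0.10 in thymocytes and −0.12 in skin.

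**Figure D4:**
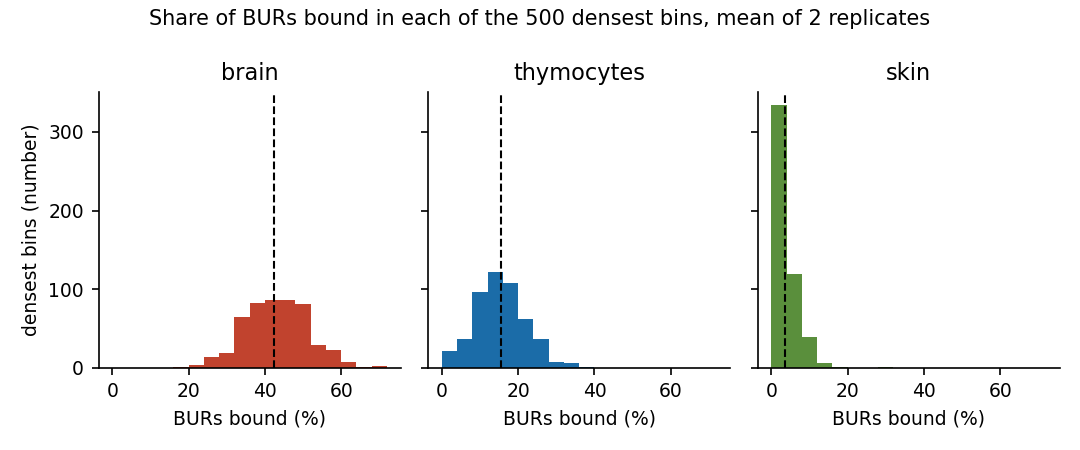
Number of densest bins (vertical axis) by the percentage of their BURs bound in brain, thymocytes and skin (horizontal axis, classes of 4 percentage points, mean of 2 replicates), with the median as a dashed line. The medians stand at 42.5%, 15.4% and 3.45%, and each bin holds only 25 to 37 BURs.

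The densest bin, chr5:83100001-83200000, held 37 BURs and no protein-coding gene. In brain 59.5% and 56.8% of its BURs were bound, in thymocytes 27.0% in both replicates and in skin 8.11% in both, and no standard SATB1 or CTCF peak lay in it. The second, chr3:48800001-48900000, with 35 BURs, reached 40.0% and 34.3% in brain, 14.3% in both thymocyte replicates and 2.86% in both skin replicates. Across the 500 bins, which all had between 25 and 37 BURs, the BUR count had a Pearson's r of 0.03 with the share bound in brain, 0.02 in thymocytes and 0.00 in skin. Over the 10 densest bins the mean share ranged from 37.1% to 58.1% in brain, from 9.38% to 27.3% in thymocytes and from 0% to 9.38% in skin. Of these 10 bins, 4 overlapped a protein-coding gene, which was Cdh18 (chr15:23300001-23400000), Fam5c (chr1:148500001-148600000), Zfp804a (chr2:81900001-82000000) and Fstl5 (chr3:76100001-76200000). The bin with Cdh18, a neural cadherin, had 42.4% and 45.5% of 33 BURs bound in brain, 18.2% in both thymocyte replicates and none in skin.

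The extremes, each a share of few BURs, differed by cell type. Brain was highest in chr7:93500001-93600000, with 69.2% of 26 BURs bound in both replicates, which holds the olfactory receptor genes Olfr301, Olfr303, Olfr304 and Olfr305. It was lowest, at 18.5% in both, in chr11:91700001-91800000, where thymocytes had 3.70% and 0% and skin had none. Thymocytes were highest in the gene-free bin chr1:32000001-32100000, with 42.3% and 34.6% of 26 BURs, where brain had 61.5% in both and skin 15.4% and 11.5%. They were lowest in chr10:34800001-34900000, with 0% of 28 BURs in both replicates, in which brain still had 35.7% and 39.3%.

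One bin stood apart. The bin chr11:3000001-3100000, with 28 BURs, had the lowest AT content (54.8%), the highest share bound in skin (28.6% and 32.1%), and the most standard SATB1 and CTCF peaks. It held 21 and 6 standard SATB1 peaks, 18 CTCF peaks in thymocytes and 33 in skin. CTCF peaks of this bin shared by both cell types had fold enrichments of 1.84 to 3.18 in thymocytes and 1.46 to 3.35 in skin. The medians over CTCF peaks of the other bins were 7.87 and 5.76. The genes in the bin are Sfi1, whose product is a centrosomal protein, and the end of Drg1, which encodes a GTP-binding protein. The bin is 1 of 3 densest bins with a region, here chr11:3000318-3000564, in which all 11 lists have a peak. The others are chr3:111200001-111300000 and chr4:28100001-28200000, with 1 peak each in the standard SATB1 and CTCF lists. Chromosomes 1 to 19 hold 53 such regions, 3 of them in densest bins. What sets these regions apart was not tested.

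Standard SATB1 peaks were rare in the densest bins. The 2 replicates had 108 and 65 peaks there, in 68 and 54 bins (13.6% and 10.8%), where 49.6% and 40.5% of all bins held 1. Peaks per bin were 0.216 and 0.130, against 1.98 and 1.12 in the other bins, and without the chromosome 11 bin 0.174 and 0.118. The next 500 bins by rank had 0.13 and 0.11 per bin. The mean log2 ratio was −3.15, or −3.37 without that bin, in the same direction in both replicates, and the exact two-sided sign-flip permutation p was 0.50, the smallest that 2 replicates allow. Only 22.2% and 38.5% of the peaks in the densest bins were found in the other replicate, against 45.5% and 84.6% in the other bins. A BUR overlapped such a peak in 20 and 19 cases, or 0.147% and 0.14% of BURs, against 0.694% and 0.555% in the other bins. In other bins of the narrow AT range the shares were 0.102% and 0.159%, against 0.0958% and 0.111% in the 499 densest bins.

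CTCF peaks were rarer still in thymocytes. The thymocyte list had 30 peaks in 12 densest bins and the skin list 120 in 81, where 37.2% and 54.1% of all bins held a CTCF peak. Of these, 18 and 33 lay in the chromosome 11 bin, and without it 12 and 87 were left, 0.0240 and 0.174 per bin. The other bins had 0.840 and 1.29 per bin, and the next 500 bins by rank had 0.016 in thymocytes and 0.21 in skin. The mean log2 ratio was −3.11 with the bin and −4.0 without it (exact two-sided sign-flip permutation p = 0.50, the smallest that 2 lists allow, in both cases). In 10 bins both cell types had a CTCF peak, and no like count is given for the other bins. No peak of any of these 4 lists lay in 354 of the densest bins (70.8%), against 29.7% of the other bins.

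Other bins of the narrow AT range also had few of these peaks. Over the full range the mean log2 ratios were −2.58 for standard SATB1 and −2.43 for CTCF, and over the narrow range −0.33 and −0.77. In the narrow range the standard SATB1 lists had 0.213 and 0.153 peaks per bin and the CTCF lists 0.0486 in thymocytes and 0.252 in skin. The ratio of the densest bins to these was 0.819 and 0.771 for standard SATB1, and 0.495 and 0.692 for CTCF. At least 1 standard SATB1 peak was found in 13.4% and 10.6% of the 499 densest bins and in 14.3% and 12.2% of the 4181. For CTCF these shares were 2.2% against 4.04% in thymocytes and 16% against 20.7% in skin. For urea SATB1, the peaks per bin exceeded those of the AT range by 1.40 to 1.53 times, and BURs per bin were 27.2 against 18.6.

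**Figure D5:**
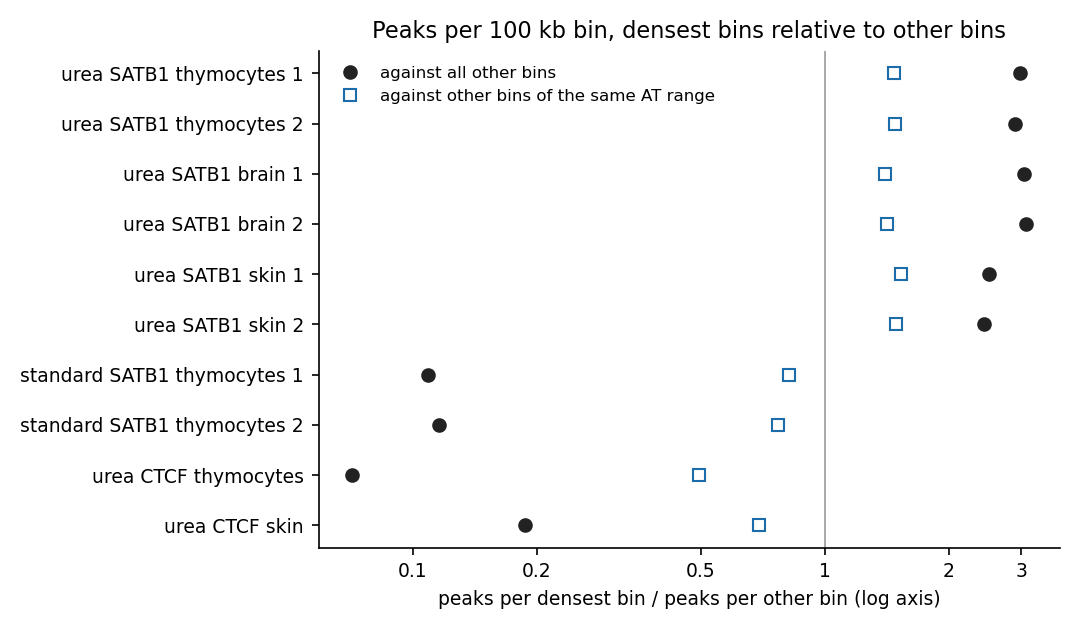
Ratio of the mean number of peaks per densest bin to that per other bin (horizontal axis, log scale) for the 10 ChIP-seq lists, against all other bins (filled circles, 500 densest bins) and against other bins of the same AT range (open squares, 499 densest bins, without the chromosome 11 bin). Against all other bins urea SATB1 lies at 2.44 to 3.08 and the standard SATB1 and CTCF lists at 0.0714 to 0.187, and against the AT range all ratios lie closer to 1.

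Most of the densest bins contained no protein-coding gene of the GENCODE vM1 annotation. They were 358 of 500 (71.6%, exact binomial 95% interval 67.4% to 75.5%), against 34.3% of the other bins and 67.6% of those in the narrow AT range. No annotated gene of any type overlapped 310 of them (62%, against 25.5%). The 500 bins held 136 starts of protein-coding genes, 0.272 per bin against 0.906. Of their BURs, 10811 (79.5%) lay between protein-coding genes, 2620 (19.3%) in introns and 161 (1.18%) touched an exon, where the other bins had 66.8%, 30.0% and 3.21%. The share bound was alike in introns and between genes: in brain 45.5% and 42.1% against 44.2% and 40.6%, in thymocytes 16.6% and 14.2% against 16.4% and 14.2%, and in skin 3.44% and 3.17% against 3.39% and 3.33%.

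The 193 protein-coding genes that overlapped the densest bins included many olfactory receptors. Among them were 95 of the 1106 olfactory receptor genes (8.59%) and 2 of 330 vomeronasal receptor genes (0.606%), with a median length of 0.960 kb. Over all protein-coding genes the share was 0.901%. These receptor genes lie in groups, in 20 bins (4% of the densest bins, against 2.27% of the other bins), 13 of them on chromosome 2. In these bins 46.1% and 43.5% of 549 BURs were bound in brain, 19.1% and 14.8% in thymocytes and 5.28% and 5.1% in skin. In other bins with such receptors the shares were 33.8% and 31.0%, 12.6% and 11.0%, and 3.78% in both skin replicates.

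The other 96 genes varied in length, with a median of 266 kb, against 15.5 kb over all protein-coding genes. Of the 188 genes of 500 kb or more, 26 (13.8%) reached into a densest bin, and of the 721 genes of 200 to 500 kb 29 (4.02%). Of the 1372 genes of 100 to 200 kb there were 10 (0.729%), and of the 19137 shorter genes, receptors included, 128 (0.669%). Of the families fixed by name, 8 of 63 cadherin and protocadherin genes (12.7%), 5 of 42 glutamate and GABA receptor genes (11.9%) and 4 of 41 synaptic adhesion genes (9.76%) did so, of which 2, 1 and 1 started there. There was 1 of 134 channel genes (Kcnd2, 0.746%), 1 of 98 cytochrome P450 genes (Cyp2r1, 1.02%) and 1 of 362 Zfp genes (Zfp804a, 0.276%). Of the serpin, defensin, killer cell lectin-like receptor, keratin, keratin-associated, pregnancy-specific and Ceacam, Skint, Hox and ribosomal protein genes, and of 24 T-cell genes, 0 reached into these bins. The share over all protein-coding genes was 0.901%, and these families hold 11 to 72 genes each, too few to read 0 as an absence. A long gene spans more bins, and the family shares were not compared at like gene length.

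The genes with most bases in the densest bins, a ranking that favours long genes, were long, and many are known from neurons. Erbb4, a receptor for neuregulins, led with 500 kb in 5 bins and 140 BURs, of which 46.4% and 41.4% were bound in brain, 17.9% and 15.0% in thymocytes and 4.29% in both skin replicates. Lrp1b, of the LDL receptor family, had 449 kb and 120 BURs, with 43.3% and 40.0% bound in brain and 11.7% and 10.8% in thymocytes. Grik2, a kainate receptor subunit, had 381 kb and 101 BURs, with 49.5% and 46.5% bound in brain and 19.8% and 16.8% in thymocytes. These values lie close to those of all BURs in the densest bins. Cadm2, Cdh18, Csmd3 and Ncam2, all encoding cell surface proteins, each had about 300 kb and 81 to 89 BURs, of which 32.1% to 48.2% were bound in brain. The next were Fam5c, Sema3a, which encodes a guidance cue for axons, Dgkb, a diacylglycerol kinase, and Fstl5, with 54 to 79 BURs and 43.9% to 55.6% bound in brain. Dgkb, with 55.6% and 53.7% of 54 BURs, was the highest of these 11 genes in brain.

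Other members of the families reached into 1 or 2 of the bins. Grm5, a metabotropic glutamate receptor, had 27 BURs, with 63% and 51.9% bound in brain and 18.5% in both thymocyte replicates. Cdh12 and Cdh8 had 35 and 28 BURs, Cntn5, a contactin, 30, and Kcnd2, a potassium channel subunit, 26, with 36.7% to 50.0% bound in brain. Zfp804a, a zinc finger protein gene that starts in its bin, had 36 BURs, with 58.3% and 50.0% bound in brain and none in skin. The receptor genes are short and held few BURs: Olfr1213 had 5, Vmn2r71 had 4, and Olfr1080, Olfr301 and Vmn2r70 had 3 each. All 3 BURs of Olfr301 were bound in both brain replicates.

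At the 136 gene starts in the densest bins, 94 of which belong to olfactory receptors, urea SATB1 peaks were more frequent than at other starts, and standard SATB1 peaks were less frequent. Within 1 kb of the start there was a urea SATB1 peak at 46 and 42 starts (33.8% and 30.9%) in brain, at 18 and 15 (13.2% and 11.0%) in thymocytes and at 6 and 5 in skin, where 4.64% and 4.15%, 1.87% and 1.73%, and 0.569% and 0.564% of the starts in other bins had one. Standard SATB1 peaks lay at 7 and 3 starts, against 51.5% and 39.6% of the starts elsewhere, and CTCF peaks at 2 in each cell type, against 11.3% and 13.4%. The starts with a standard SATB1 peak in both replicates were those of Calcrl, a receptor component for adrenomedullin and related peptides, St8sia4, a polysialyltransferase, and Sfi1 in the chromosome 11 bin. These 3 were named after their values were seen.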

How the data were processed

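The 11 lists of peaks used were deposited in narrowPeak format. Per the labels and the study's methods, the authors mapped uniquely matching reads to mm9 with Bowtie2 2.3.1 and ran the peak caller MACS2 2.2.7 sample by sample (q-value 0.01). Whether inputs served as controls is not given in the sources used here. The deposited lists give the fold enrichment, a ratio of pileup to local background, computed by the authors' peak caller. Whether that background came from the sample itself or from an input is thus not known here. The −log10 p-values and q-values were deposited for each peak within its own list. A display score, also deposited, was not used. The lists hold no counts, so no depth per library was used and no interval for it is given.

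The members, gene lists and tests were chosen with earlier results of these data known. Bins, overlaps of at least 1 bp and exact permutation tests over libraries were computed with Python 3.11.15, numpy 2.4.6 and scipy 1.17.1, with pysam 0.24.0 for sequence and matplotlib 3.10.9 for figures. A planted ratio of 1.2 between the densest and other bins, simulated on all 219828 BURs, was recovered as 1.15 to 1.21. Genes came from GENCODE vM1 on NCBIM37. Benjamini-Hochberg adjustment was over 6 tests. Named bins were the 10 densest, those with the highest and lowest share bound in each cell type, and those with most standard SATB1 and CTCF peaks. Named genes were those in these bins, the 10 with most bases in densest bins, and the 3 of each family with most BURs there. Satb1-/- samples, inputs, Hi-C, 4C-seq and a further thymocyte CTCF sample were not analysed here. A gene and a sequence chosen by these rules are not reported here.

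The labels' replicate numbers were used. The alternatives tried included −log10 q cut at 5 or more, the summit or 50% of the SATB1 peak on the BUR, bins offset by 50 kb, 250 or 1000 bins, bins ranked by bases covered, merged BURs, removal of regions with a peak in all 11 lists, bins without protein-coding genes, the AT range, each replicate left out, replicate numbers as a block and cell-type means. Added after the data were seen were the chromosome 11 bin left out, alone and with the AT range, all or no ties at the threshold, short bins kept, and weighting by in vitro strength.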

Additional observations from a re-analysis of the deposited data

Results flagged for a closer look

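The ratio stood out in 2 pairs of cell types, because both replicates moved one way in one cell type and the opposite way in the other. The log2 ratio of the share of BURs bound, densest to other bins, was 0.27 and 0.27 in brain and 0.19 and 0.15 in thymocytes, but −0.09 and −0.11 in skin. The mean in brain exceeded that in skin by 0.37, and that in thymocytes exceeded it by 0.27. Each pair was not tested on its own, and over all 3 cell types the exact permutation p was 0.0667, the smallest the design allows. Against other bins of the narrow AT range, added after the data were seen, skin also lay above 0, with a mean log2 ratio of 0.08, as did brain with 0.05 and thymocytes with 0.07, so that the opposite directions were not seen there.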

How the results depend on the processing

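No adjusted p passed 0.05 in the values reported or under any alternative, and the signs of the mean log2 ratios over libraries were kept. The skin log2 ratio, −0.10, turned positive with bins ranked by bases covered (0.0885), in the AT range without the chromosome 11 bin (0.0805) and with BURs weighted by in vitro fold enrichment (0.585) or −log10 q (0.0321). The AT range without that bin and both weightings were chosen after seeing the data. Ranking by bases covered also gave 76.4% of bins without a protein-coding gene. Weighting by in vitro fold enrichment moved the mean log2 ratio of BURs bound most, from 0.11 to 0.546, and the narrow AT range took it to 0.0686. In that range the standard SATB1 log2 ratio went from −3.15 to −0.33 and that of CTCF from −3.11 to −0.77. The ratio of the sums of squares between and within cell types went from 147 to 2.48. The causes were not tested. With each replicate left out, the mean log2 ratio of BURs bound was 0.08 to 0.16 and that of fold enrichment on a BUR −0.13 to −0.12. For standard SATB1 it was −3.2 to −3.1. The ratio of sums of squares was 106 to 856 and the Jonckheere-Terpstra statistic 8. For BURs bound and fold enrichment, the exact sign-flip permutation p was no lower than 0.0625. Replicate numbers did not pair the samples (correlations of replicate differences over bins from −0.01 to 0.00). With the replicate number as a block, the exact permutation p was 0.0278 for the order of cell types and 0.167 for the ratio between them. The lists give no depth, and with 2 replicates or lists the tests of standard SATB1 and CTCF cannot go below 0.50.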
